A study of Mus musculus with 4 samples.

Results

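The genes described here make, modify and fold secreted proteins, above all collagen, in the endoplasmic reticulum (ER). They were chosen by gene symbol: the prolyl 4-hydroxylase (P4ha), lysyl hydroxylase (Plod), protein disulfide isomerase (Pdia) and thioredoxin-domain (Txndc) families, named collagen-modifying enzymes and chaperones, and genes of the unfolded protein response. The rule found 49 genes among the 22802 rows of the deposited table. It also held 2 names under which the table has no row. Lepre1 is an older name of P3h1, a member, and Leprel1 an older name of P3h2, whose row was kept outside the members with the other ER hydroxylases. The rule uses symbols and no measured values. RNA sequencing was done on EGFP-expressing interstitial cells sorted from testes of C57BL/6J mice at postnatal day 10. All mice carried mFLE-Cre and CAG-CAT-EGFP, a reporter that makes EGFP once Cre recombinase has acted. Per the labels, 2 samples were laminin-negative and 2 laminin-positive. The sample labels call both populations EGFP-positive, whereas EGFP is weak in the laminin-negative cells per the design text of the series, so EGFP level and laminin staining cannot be told apart. What drives mFLE-Cre, and how many mice gave each sample, the labels do not say. The p-values therefore cover no more than the spread between the 2 samples of each population, and that spread may be technical. For each gene it was estimated in part from the other genes.

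A collagen chain enters the ER unfolded and is changed there before it can form a triple helix. Prolyl 4-hydroxylase adds the hydroxyl groups that make the helix stable at body temperature. Lysyl hydroxylases prepare sites for sugars and for the cross-links that later join the fibres. The chaperone HSP47 and several prolyl isomerases guide the folding. General chaperones and disulfide isomerases serve all secreted proteins, and the unfolded protein response, with its sensors IRE1, PERK and ATF6, raises their production when folding lags. Interstitial fibroblasts, smooth muscle cells and peritubular myoid cells of the testis all secrete collagen, while Leydig cells use the smooth ER for steroid synthesis.

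Values are FPKM (fragments counted for each kilobase of a gene's transcript, scaled to library size). They summed to between 491475 and 548986 per library, and read depth is not given. Averages are given as mean ± SD over the 2 libraries of a population, laminin-negative first. As no counts are given, counting error is unknown and weighs most on genes of a few FPKM or less. Smooth muscle and peritubular myoid markers were all 5 called higher in laminin-positive cells, with summed levels of 5293 to 5349 FPKM against 124 to 135. Fibroblast markers were lower in 5 of 5 (1893 to 1973 against 5004 to 5278 FPKM), and Leydig markers in 5 of 5 found (73.6 to 80.2 against 744 to 746 FPKM). Sertoli markers were higher in 3 of 6 (28.9 to 41.7 against 12.6 to 14.0 FPKM), with Fshr at 0 in 1 laminin-negative library. Germ cell markers were higher in 5 of 6 (22.0 to 22.8 against 9.03 to 12.0 FPKM), and macrophage markers in 4 of 5 found (13.7 to 16.6 against 3.29 to 4.88 FPKM). Endothelial markers were higher in 1 and lower in 2 of 5, and nearly all of their sum of 169 to 177 FPKM in laminin-negative cells came from Cdh5. Of 5 erythroid markers only Alas2 was found, at 0.217 FPKM or less. Amh, Dhh, Ddx4, Stra8, Emcn, Csf1r, Emr1 and Mrc1 reached the 1 FPKM needed for testing only in laminin-positive libraries. They could be called higher only, so their calls are no support. Lum and Tek reached it only in laminin-negative libraries and could be called lower only. The part that these cell types play in the results below was not tested. In sorted bulk samples, fewer cells of a type and less RNA per cell cannot be told apart.

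Many of the folding genes were somewhat lower in laminin-positive cells, and a few members were clearly higher. Of the 46 members that passed the filter (at least 1 FPKM in at least 2 libraries), 7 were called higher and 23 lower by limma at an adjusted p under 0.05. The 7 are 15.2% of the tested members, where 26.6% of all 12348 tested genes were called higher, and the 23 are 50%, where 26.3% of all were called lower. Among the higher calls, Colgalt2 passed the filter only through the libraries in which it is high, so it could be called in that direction only. In either direction 30 members were called, beside 52.9% of all tested genes. The laminin-positive libraries lay below the laminin-negative ones for 32 members (69.6%, against 37.8% of all tested genes) and above them for 8 (17.4%, against 39.4%). The members' median log2 difference was −0.19, beside 0.01 over all tested genes. The lower members numbered 13 with libraries set to equal FPKM sums and 8 without variance shared across genes. The lower calls over all 12348 tested genes fell as well, from 3245 to 2382 and 1211 in the same settings. Under equal sums the members' median was −0.07, beside 0.11 over all tested genes. Most lower calls were small, and 16 of the 23 fell short of 0.5 on the log2 scale. Among the higher members 1, Herpud1, passed a log2 difference of 1, as did 7.29% of all tested genes. Among the lower members 3 did so, Pcolce, Ddit3 and Plod2, beside 5.89% of all tested genes.

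**Figure D1:**
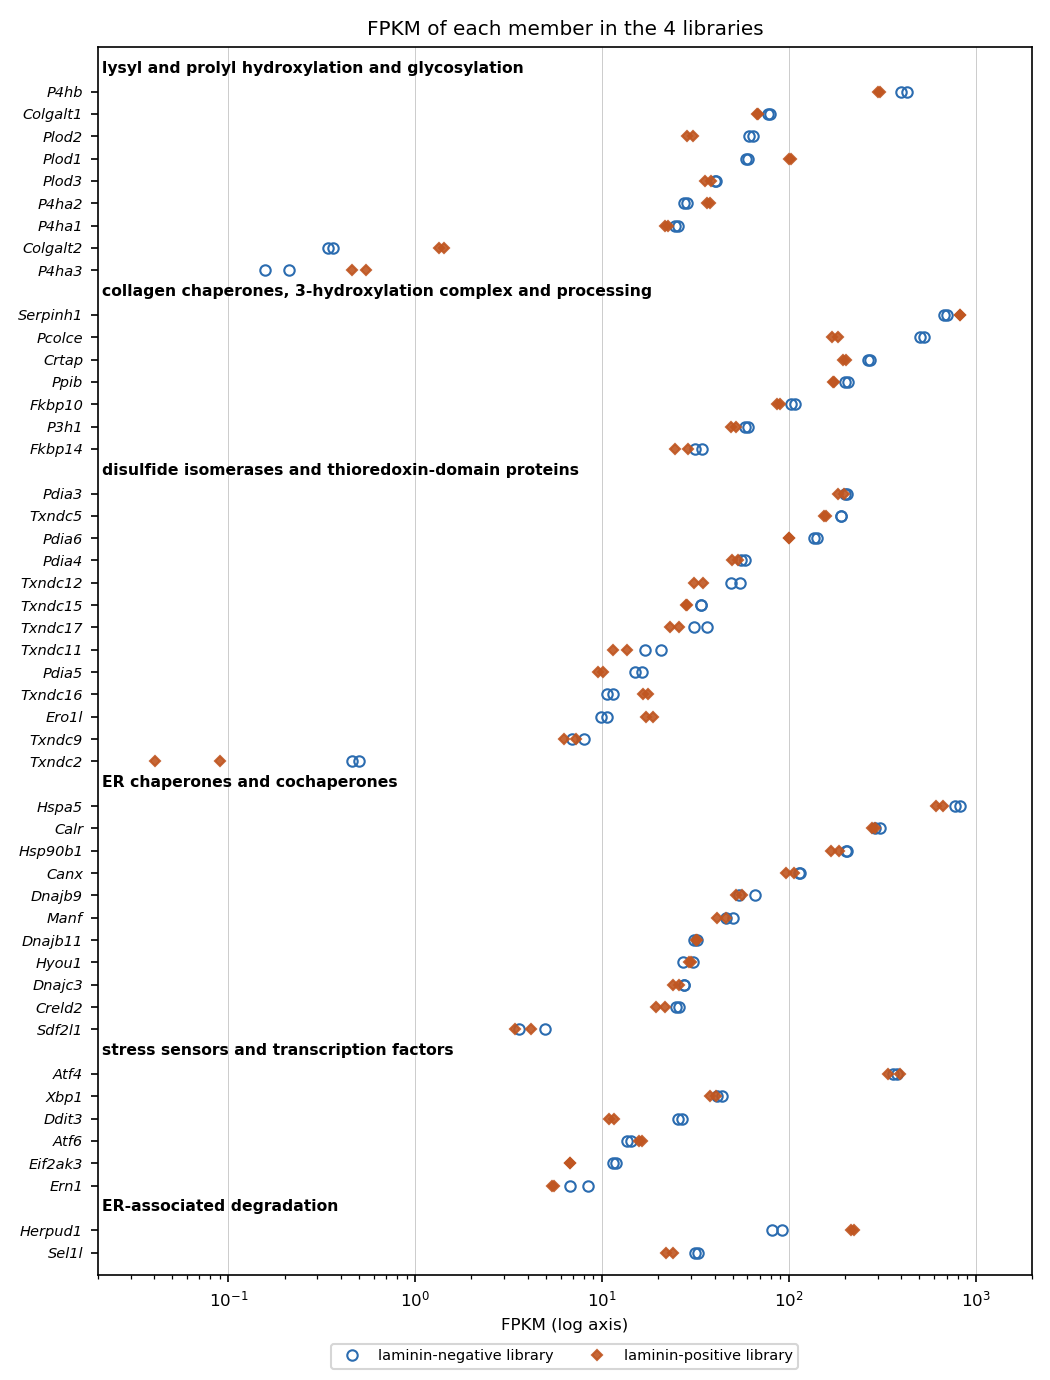
FPKM of 48 members in each library on a log axis, grouped by role, with circles for the 2 laminin-negative and diamonds for the 2 laminin-positive libraries. Txndc8, at 0 in all 4 libraries, is not drawn. Hspa5, Serpinh1, Pcolce, P4hb and Atf4 lie at the right, and Herpud1 and Plod1 are the abundant members whose diamonds stand clearly to the right of the circles.

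The members were abundant genes. Their median level was 41.6 FPKM, against 11.0 FPKM over all tested genes, and 14 of the 49 averaged at least 100 FPKM over the libraries. The 5 highest held 48.7% of the members' summed FPKM. Below the filter were P4ha3, Txndc2 and Txndc8. Txndc8, a thioredoxin gene of spermatids, was listed at 0 in every library. Txndc2, another one, was at 0.502 and 0.461 FPKM in laminin-negative and 0.0907 and 0.0404 FPKM in laminin-positive libraries. Colgalt2 passed the filter only through the laminin-positive libraries, while 45 members reached 1 FPKM in all 4.

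**Figure D2:**
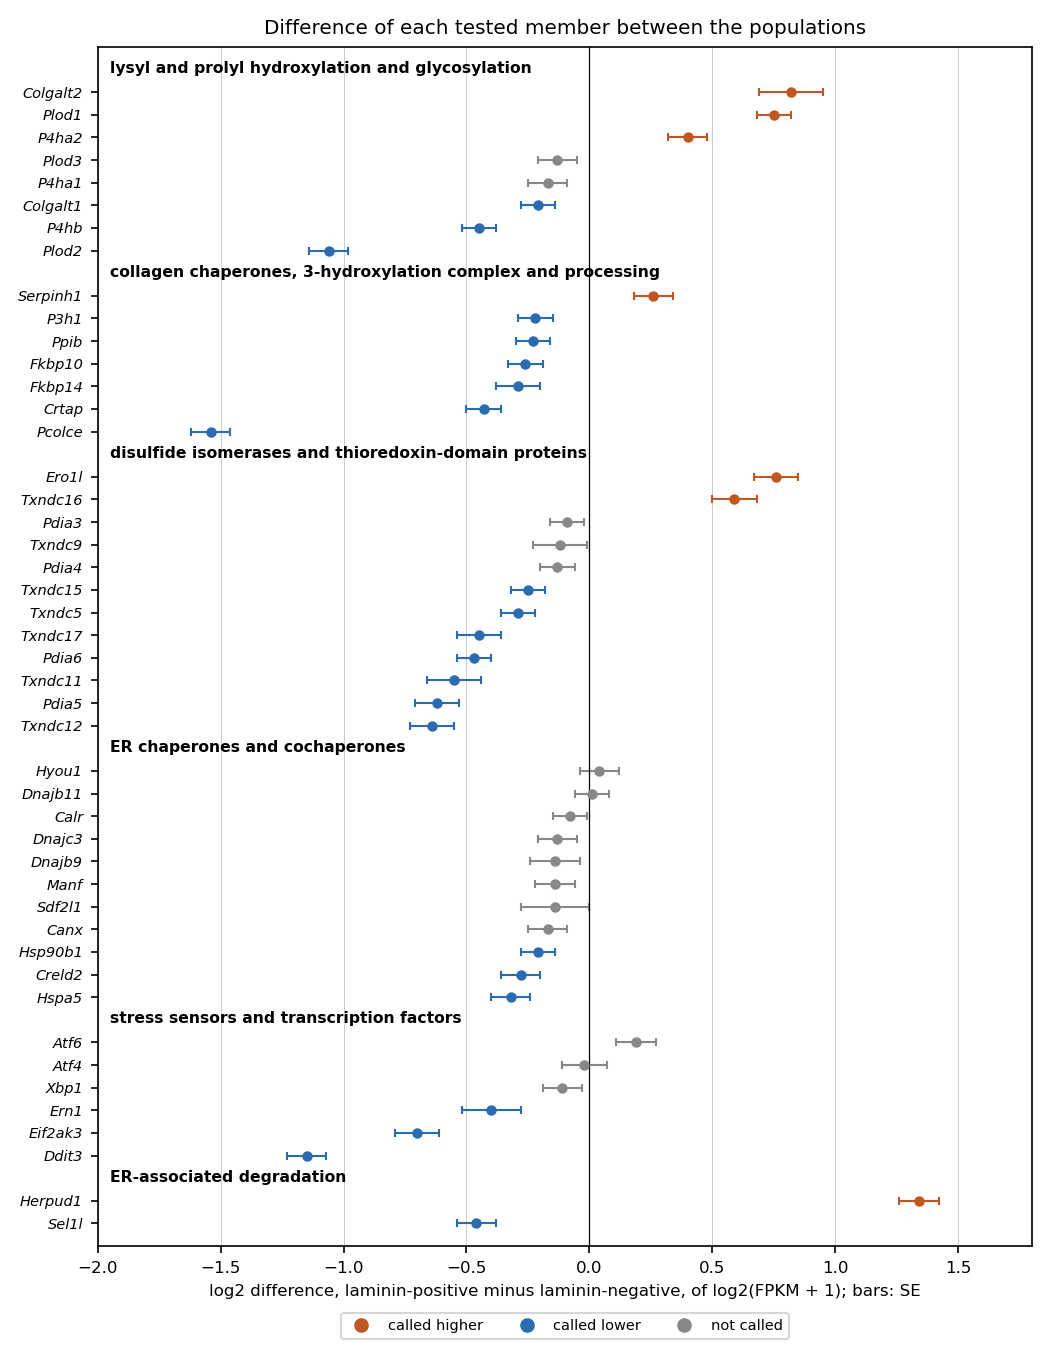
Log2 difference (laminin-positive minus laminin-negative, on log2(FPKM + 1)) of the 46 tested members by role, with bars for the SE and colour for the limma call at an adjusted p under 0.05. Pcolce (−1.54), Ddit3 (−1.15) and Plod2 (−1.06) lie farthest to the left and Herpud1 (1.34) farthest to the right, while the ER chaperones sit between −0.32 and 0.04.

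Of 8 tested genes for hydroxylation and glycosylation, 3 were called higher, Colgalt2 among them, 3 lower and 2 were not called. The called shares are 37.5% each, against 26.6% higher and 26.3% lower of all tested genes. Among the lysyl hydroxylases, Plod1 and Plod2 moved in opposite directions. Plod1 encodes LH1, which hydroxylates lysines in the helical part of collagen. It stood at 60.3 and 59.0 FPKM in laminin-negative and 102 and 100.4 FPKM in laminin-positive libraries, so the groups did not overlap. It was 1.70-fold higher in laminin-positive cells (log2 difference 0.75, SE 0.07, limma adjusted p = 5.44e-06). Plod2 encodes LH2, known for hydroxylating lysines in the telopeptides at the chain ends, which sets the type of cross-link. It stood at 61.5 and 64.7 FPKM in laminin-negative but 28.6 and 30.8 FPKM in laminin-positive libraries. It was 2.12-fold lower in laminin-positive cells (log2 difference −1.06, SE 0.08, limma adjusted p = 7.81e-07). Plod3, whose product LH3 also transfers sugars to hydroxylysine, was at 40.0 and 40.9 FPKM against 38.2 and 35.6 FPKM and was not called (limma adjusted p = 0.168). Znhit1, which overlaps Plod3 on the opposite strand, was called lower (log2 difference −0.41). These genes lie on chromosome 4 (Plod1, 147909753 to 147936767), chromosome 9 (Plod2, 92542223 to 92608428) and chromosome 5 (Plod3, 136987019 to 136996648) of GRCm38.

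The family's summed FPKM was close in all libraries, from 162 to 169 FPKM, but its make-up was not. Plod1 supplied 37.3% and 35.8% of it in laminin-negative and 60.4% and 60.2% in laminin-positive libraries. Plod2 supplied 38.0% and 39.3% against 17.0% and 18.5%. The ratio of Plod1 to Plod2 was thus 0.981 and 0.912 in laminin-negative and 3.56 and 3.26 in laminin-positive libraries, with no overlap. No test is given for such ratios, because with 2 libraries a side the smallest p of an exact permutation test is 0.333.

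**Figure D3:**
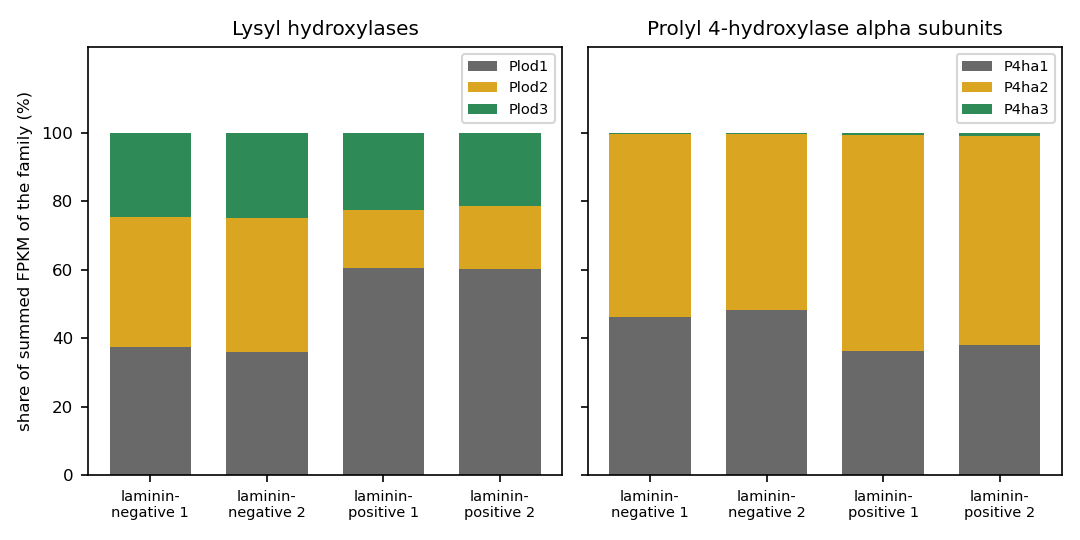
Share of the summed FPKM of the lysyl hydroxylase genes (left) and of the prolyl 4-hydroxylase alpha subunit genes (right) held by each gene in each of the 4 libraries, in percent. Plod1 takes 60.4% and 60.2% in the laminin-positive libraries against 37.3% and 35.8% in the laminin-negative ones, and P4ha2 63.1% and 61.1% against 53.6% and 51.6%.

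Prolyl 4-hydroxylase is a tetramer of alpha subunits, which carry the active site, and beta subunits, which are the disulfide isomerase encoded by P4hb. P4ha2 (chromosome 11, 54100095 to 54131665) was at 28.5 and 27.5 FPKM in laminin-negative and 38.0 and 36.3 FPKM in laminin-positive libraries, without overlap. It was 1.33-fold higher in laminin-positive cells (log2 difference 0.40, SE 0.08, limma adjusted p = 0.00122). P4ha1 (chromosome 10, 59323296 to 59373304), the alpha subunit of most tissues, was at 24.4 and 25.6 FPKM against 21.8 and 22.5 FPKM and was not called (log2 difference −0.17, SE 0.08, limma adjusted p = 0.0964). P4ha3 was scarce, at 0.211 and 0.157 FPKM against 0.459 and 0.547 FPKM. P4ha2 made up 53.6% and 51.6% of the alpha subunit FPKM in laminin-negative and 63.1% and 61.1% in laminin-positive libraries.

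P4hb (chromosome 11, 120560298 to 120573253) moved against P4ha2. It stood at 400.2 and 430.2 FPKM in laminin-negative and 307 and 301 FPKM in laminin-positive libraries, so both laminin-positive libraries were the lower ones. It was 1.36-fold lower (log2 difference −0.45, SE 0.07, limma adjusted p = 4.88e-04). Its FPKM came to 7.53 and 8.07 times that of the alpha subunits together in laminin-negative and 5.10 and 5.07 times in laminin-positive libraries. Its call was lost without variance shared across genes (0.0589), in a range from 2.79e-04 to 0.0589 over the alternatives.

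Colgalt1 and Colgalt2 encode the enzymes that put galactose on hydroxylysine. Colgalt1 supplied 98.0% to 99.6% of their summed FPKM. It was slightly lower in laminin-positive cells, at 77.4 and 79.5 FPKM against 68.5 and 67.1 FPKM (limma adjusted p = 0.0276), and kept that call under 6 of 13 alternatives (0.0230 to 0.347). Colgalt2 was very low, at 0.341 and 0.362 FPKM in laminin-negative and 1.43 and 1.34 FPKM in laminin-positive libraries, a 3.94-fold ratio whose size is uncertain at such levels. Since it passed the filter only through the laminin-positive libraries, no p is given for it.

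Among collagen chaperones and processing factors, 1 of 7 was called higher and 6 lower (14.3% and 85.7%), where 26.6% and 26.3% of all tested genes were called. Serpinh1 (chromosome 7, 99345376 to 99353239) encodes HSP47, the chaperone that binds folded procollagen. It was at 705 and 674 FPKM in laminin-negative and at 827 FPKM in both laminin-positive libraries, which were the higher ones. The difference was 1.20-fold (log2 difference 0.26, SE 0.08, limma adjusted p = 0.0145). That call ended without either laminin-positive replicate (0.122 without replicate 1, 0.125 without replicate 2) and without variance shared across genes (0.0601), in a range from 5.81e-04 to 0.125.

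Pcolce (chromosome 5, 137605103 to 137613784) encodes a secreted protein that speeds removal of the C-terminal propeptide. Its difference was the largest of the tested members on the log2(FPKM + 1) scale, which shrinks those of low genes. It stood at 527 and 505 FPKM in laminin-negative and only 184 and 170.2 FPKM in laminin-positive libraries, 2.91-fold lower (log2 difference −1.54, SE 0.08, limma adjusted p = 3.79e-08). The annotation places Fbxo24 across it on the same strand, and the row of Fbxo24 was below the filter at 0.593 and 0.197 FPKM.

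P3h1, Crtap and Ppib encode the complex of prolyl 3-hydroxylase 1, cartilage-associated protein and cyclophilin B, which modifies a single proline of each collagen I chain. All were called lower in laminin-positive cells. Crtap was at 266 and 271 FPKM against 196 and 201 FPKM (1.35-fold, log2 difference −0.43, limma adjusted p = 3.78e-04), and was called lower under every alternative tried. P3h1 and Ppib differed only 1.17-fold each. P3h1 was at 58.4 and 60.4 FPKM against 52.3 and 49.3 FPKM (limma adjusted p = 0.0257), a call that held under 6 of 13 alternatives (0.0226 to 0.291). Ppib was at 199.5 and 208 FPKM against 175 and 173 FPKM (limma adjusted p = 0.0188), a call that held under 7 of 13 alternatives (0.0165 to 0.226). Ppib overlaps Snx22 on the opposite strand, whose row averaged 70.1 ± 2.25 and 60.4 ± 3.13 FPKM. Since the strand setting is not given, their reads may not be separated. The collagen prolyl isomerases Fkbp10 (FKBP65) and Fkbp14 (FKBP22) were lower by 0.26 and 0.29 on the log2 scale (limma adjusted p = 0.0105 and 0.0223). Fkbp10 kept its call under 9 and Fkbp14 under 8 of 13 alternatives (0.00832 to 0.156, and 0.00728 to 0.239). Nt5c3b, which overlaps Fkbp10 on the opposite strand, was called lower as well (log2 difference −0.53).

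The substrates of these enzymes differed as well. Col1a1, Col1a2 and Col3a1, the main fibrillar chains, summed to 7478 and 7014 FPKM in laminin-negative and 4206 and 4022 FPKM in laminin-positive libraries. The collagen IV chains Col4a1 and Col4a2 of basement membranes summed to 711 and 655 FPKM against 1574 FPKM in both laminin-positive libraries. Serpinh1 FPKM therefore came to 9.43% and 9.61% of the fibrillar sum in laminin-negative and 19.7% and 20.6% in laminin-positive libraries. P4hb came to 5.35% and 6.13% against 7.31% and 7.48%, and Pcolce to 7.05% and 7.21% against 4.38% and 4.23%. Pcolce was thus lower relative to the fibrillar chains too, whereas Serpinh1 and P4hb were higher relative to them. The collagen IV chains, which differed in the other direction, are not part of that sum.

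Of 12 tested disulfide isomerase and thioredoxin-domain genes, 2 were called higher and 7 lower (16.7% and 58.3%, against 26.6% and 26.3% of all tested genes). Ero1l (chromosome 14, 45283087 to 45318771) encodes the oxidase that recharges disulfide isomerase. It was at 9.83 and 10.6 FPKM in laminin-negative and 17.3 and 18.7 FPKM in laminin-positive libraries, without overlap. The 1.76-fold difference (log2 difference 0.76, SE 0.09, limma adjusted p = 3.98e-05) was called under every alternative tried. Its FPKM came to 2.46% of that of P4hb in each laminin-negative library and to 5.62% and 6.23% in the laminin-positive ones.

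Txndc16, which encodes an ER thioredoxin-domain protein, lies on the same chromosome as Ero1l (chromosome 14, 45133465 to 45220328). It was the other member of the role called higher, at 10.6 and 11.5 FPKM against 16.5 and 17.7 FPKM (1.55-fold, limma adjusted p = 2.62e-04). Without variance shared across genes its call was lost (0.0580), in a range from 3.99e-05 to 0.0580. Gpr137c, which overlaps Txndc16 on the opposite strand, was below the filter.

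The disulfide isomerases proper were split by size of change. Pdia6 was at 137 and 141 FPKM in laminin-negative and at 100.06 and 100.02 FPKM in laminin-positive libraries (1.39-fold lower, limma adjusted p = 1.91e-04). Pdia5 was scarcer, at 14.9 and 16.4 FPKM against 10.1 and 9.54 FPKM (1.59-fold lower, limma adjusted p = 2.02e-04). Pdia3 (ERp57, the partner of calnexin and calreticulin) averaged 203 ± 3.44 and 191 ± 9.63 FPKM and Pdia4 (ERp72) 56.7 ± 1.79 and 51.7 ± 2.66 FPKM, and neither was called (limma adjusted p = 0.316 and 0.167). Pdia6 was called lower under every alternative tried, while Pdia5 lost its call without variance shared across genes (0.0560, in a range from 9.31e-05 to 0.0560).

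Txndc12 (ERp18), a small ER oxidoreductase, was called lower, from 48.8 and 54.6 FPKM to 31.1 and 34.5 FPKM (1.58-fold, limma adjusted p = 1.07e-04). Kti12 lies within it on the same strand and was lower as well, at 20.5 ± 1.62 and 14.9 ± 0.147 FPKM on average. Txndc11, a partner of the degradation factor EDEM, was at 17.0 and 20.7 FPKM against 13.6 and 11.5 FPKM (limma adjusted p = 0.00204). The abundant Txndc5 (ERp46) averaged 190.3 ± 0.887 and 156 ± 3.09 FPKM and Txndc15 33.8 ± 0.0395 and 28.3 ± 0.149 FPKM (limma adjusted p = 0.00506 and 0.0167). The cytosolic Txndc17 averaged 33.7 ± 3.59 and 24.4 ± 1.9 FPKM (limma adjusted p = 0.00230), while cytosolic Txndc9, at 7.46 ± 0.762 and 6.77 ± 0.731 FPKM, was not called (0.382). On the opposite strand, Txndc11 overlaps Snn, which was called higher, and Txndc5 overlaps Bmp6, which was called lower. The calls of Txndc11, Txndc12 and Txndc17 were lost without variance shared across genes (0.171, 0.0832 and 0.151, the highest of their alternatives). Txndc5 kept its call under 11 and Txndc15 under 10 of 13 alternatives (0.00429 to 0.0704, and 0.0125 to 0.218).

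The general ER chaperones differed little. Of 11 tested, 0 were called higher and 3 lower. The 3 are 27.3%, close to the 26.3% of all tested genes called lower, and 26.6% of all were called higher. By the unadjusted limma p under 0.05 the count of higher ones was also 0. Small as the differences were, both laminin-positive libraries lay below the laminin-negative ones for 7 of the 11 (63.6%, against 37.8% of all tested genes). They lay above them for 0, against 39.4% of all tested genes. Hspa5 (chromosome 2, 34771970 to 34777547) encodes BiP, the main Hsp70 of the ER and the most abundant chaperone here in laminin-negative cells. It was at 776 and 819 FPKM in laminin-negative and 664 and 616 FPKM in laminin-positive libraries, which did not overlap. It was 1.25-fold lower in laminin-positive cells (log2 difference −0.32, SE 0.08, limma adjusted p = 0.00691). That call ended without laminin-positive replicate 2 (0.126) and without variance shared across genes (0.105), in a range from 0.00228 to 0.126.

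Hsp90b1 (GRP94) averaged 203 ± 1.29 and 176 ± 11.5 FPKM (limma adjusted p = 0.0380) and kept its lower call under only 4 of 13 alternatives (0.0326 to 0.373). Creld2 averaged 25.3 ± 0.653 and 20.7 ± 1.62 FPKM (limma adjusted p = 0.0177) and kept its call under 9 (0.0150 to 0.187). The lectin chaperones Calr and Canx averaged 298 ± 12.0 and 283 ± 7.41 FPKM and 114 ± 1.85 and 101 ± 7.18 FPKM, and neither was called (limma adjusted p = 0.393 and 0.0758). The other 6, Hyou1, Dnajb9, Dnajb11, Dnajc3, Sdf2l1 and Manf, had log2 differences from −0.14 to 0.04 and were not called. Without laminin-negative replicate 1, Dnajb9 was called lower (limma adjusted p = 0.0245). Manf, a secreted ER stress protein, overlaps Rbm15b on the same strand, which was called higher. Sdf2l1 was the scarce member among them, at 4.30 ± 0.963 and 3.79 ± 0.541 FPKM on average.

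Of 6 tested stress sensors and transcription factors, 3 were called lower (50%, against 26.3% of all tested genes) and 3 were not called. Eif2ak3 (chromosome 6, 70844515 to 70905245) encodes PERK, the sensor kinase that slows translation. It was at 11.5 and 11.8 FPKM in laminin-negative and at 6.76 FPKM in both laminin-positive libraries (1.72-fold lower, log2 difference −0.70, SE 0.09, limma adjusted p = 8.13e-05). Ern1, the gene of IRE1 alpha, was at 8.45 and 6.70 FPKM against 5.40 and 5.52 FPKM (limma adjusted p = 0.0146), a call that held under 8 of 13 alternatives (0.00440 to 0.200). Atf6 was at 14.3 and 13.7 FPKM against 15.8 and 16.3 FPKM, the only sensor with both laminin-positive libraries above the laminin-negative ones. It was not called (limma adjusted p = 0.0842).

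The transcription factors downstream did not move together. Ddit3 (chromosome 10, 127290774 to 127296288) encodes CHOP, a factor of prolonged ER stress that PERK induces through ATF4. It was at 26.9 and 25.5 FPKM in laminin-negative and 11.0 and 11.6 FPKM in laminin-positive libraries, clearly apart. It was 2.32-fold lower (log2 difference −1.15, SE 0.08, limma adjusted p = 8.79e-07). Mars, which meets its end on the opposite strand, averaged 19.4 ± 1.06 and 18.7 ± 0.451 FPKM and was not called (limma adjusted p = 0.675). Atf4 (chromosome 15, 80255184 to 80257541), itself controlled mainly in translation, was at 360 and 379 FPKM against 392 and 340 FPKM. Its groups overlapped and it was not called (log2 difference −0.02, SE 0.09, limma adjusted p = 0.892). Ddit3 FPKM came to 7.48% and 6.72% of that of Atf4 in laminin-negative and 2.80% and 3.40% in laminin-positive libraries. Xbp1 (chromosome 11, 5520659 to 5525893), whose RNA IRE1 splices, was at 41.1 and 43.8 FPKM against 40.6 and 38.0 FPKM and was not called (log2 difference −0.11, SE 0.08, limma adjusted p = 0.258). FPKM per gene do not separate its spliced from its unspliced RNA.

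The 2 members of ER-associated degradation went in opposite directions. Herpud1 (chromosome 8, 94386438 to 94395377) encodes Herp, a stress-induced ER membrane protein that helps to assemble the degradation complex. It was at 80.8 and 91.5 FPKM in laminin-negative and 224 and 215 FPKM in laminin-positive libraries, far apart. The 2.55-fold difference (log2 difference 1.34, SE 0.08, limma adjusted p = 1.69e-07) was the largest of the higher members on the log2(FPKM + 1) scale and was called under every alternative tried. Sel1l, the adaptor of the ubiquitin ligase in that complex, was at 32.5 and 31.6 FPKM against 22.1 and 24.1 FPKM (1.39-fold lower, limma adjusted p = 7.08e-04). Without variance shared across genes its call was lost (0.0682), in a range from 4.35e-04 to 0.0682. Herpud1 FPKM came to 10.4% and 11.2% of that of Hspa5 in laminin-negative and 33.7% and 34.8% in laminin-positive libraries.

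Herpud1 and Hspa5 are both textbook targets of the unfolded protein response, and were picked here after their opposite directions were seen. Their promoters are shown as the 250 bases before the RefSeq start on GRCm38.p6, plus strand. Whether the promoter letters have a part in those directions was not tested. Capitals mark the ER stress response element II (ATTGG and CCACG with 1 base of any kind between) in Herpud1. In Hspa5 they mark the ER stress response element (CCAAT and CCACG with 9 bases between). ATF6 and XBP1 bind these elements with NF-Y. Only exact matches were searched and marked, so near-copies that differ by a letter stay in small letters.
Herpud1, chr8:94386179-94386428: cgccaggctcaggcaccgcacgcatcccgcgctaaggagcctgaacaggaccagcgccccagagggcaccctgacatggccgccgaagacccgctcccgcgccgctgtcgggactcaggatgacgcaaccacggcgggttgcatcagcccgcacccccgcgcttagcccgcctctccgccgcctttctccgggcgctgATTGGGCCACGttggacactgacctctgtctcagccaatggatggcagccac
Hspa5, chr2:34771840-34772089: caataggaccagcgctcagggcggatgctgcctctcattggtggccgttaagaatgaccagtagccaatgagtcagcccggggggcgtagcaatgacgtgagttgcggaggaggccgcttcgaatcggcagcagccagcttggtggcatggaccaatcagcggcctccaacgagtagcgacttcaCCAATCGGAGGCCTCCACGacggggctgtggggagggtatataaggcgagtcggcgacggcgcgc

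A search of both strands over 250 bases before to 50 after each start found the ER stress response element at 7 of the 43 members with a window (16.3%), against 0.137% of 27025 genes and 0.119% of their 32851 windows. A gene was counted where any of its windows held the letters. Since the members were chosen partly as genes of the unfolded protein response, their excess of this element is no finding about these cells. Of the 7, 4 were called lower in laminin-positive cells (Creld2, Hsp90b1, Hspa5 and Pdia6). They are 57.1%, against 50% of all tested members and 26.3% of all tested genes. These lower calls held under 9, 4, 11 and 13 of 13 alternatives, in that order. The other 3 were not called (Calr, Canx and Dnajc3). None, 0 of the 7, was called higher (0 by the unadjusted limma p under 0.05 too), where 26.6% of all tested genes were. Their matches are shown so that the spacer can be compared, each written in the sense of the element with the searched letters in capitals. Distances run from the leftmost base of the match on the strand of the gene.
Hspa5, 65 bases before the start: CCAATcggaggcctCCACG
Pdia6, 98 bases before the start: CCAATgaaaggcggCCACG
Dnajc3, 105 bases before the start: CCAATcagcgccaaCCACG
Hsp90b1, 107 bases before the start: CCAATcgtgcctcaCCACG
Hsp90b1, 212 bases before the start: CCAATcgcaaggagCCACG
Creld2, 126 bases before the start: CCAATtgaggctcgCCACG
Canx, 145 bases before the start: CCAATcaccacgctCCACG
Calr, 162 bases before the start: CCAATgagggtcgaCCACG

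Element II was found at 2 members, Herpud1, which was called higher, and Dnajb11, which was not called, against 0.0444% of genes and 0.0365% of windows. The C/EBP-ATF letters TGATGCAA, which ATF4 and CHOP can bind, were found at 1 member, again Herpud1, 112 bases before its start on the opposite strand, against 1.03% of genes and 0.895% of windows. The letters TGACGTGG, an XBP1 element, were found at 2 members, Txndc5 and Txndc11, against 0.714% of genes and 0.676% of windows. Both were called lower, as were 50% of all tested members and 26.3% of all tested genes. The core ACGTG of hypoxia-responsive promoters, which lies within TGACGTGG, was found at 22 of the 43 members (51.2%), against 21.8% of genes and 19.6% of windows. The members are abundant genes chosen by function, while that background takes in all genes, expressed or not. This excess is thus no finding about these cells either. Of the 22, 4 were called higher (Ero1l, Herpud1, P4ha2 and Serpinh1), 12 lower and 6 were not called (18.2% and 54.5%, against 15.2% and 50% of all tested members and 26.6% and 26.3% of all tested genes). Such matches describe letters in these windows, and were not tested as binding sites.

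Other genes of the same pathways were taken from 8 further lists, chosen by function. Of 108 tested genes, 18 were called higher and 40 lower (16.7% and 37.0%, against 26.6% and 26.3% of all tested genes), with a median log2 difference of −0.14. With libraries set to equal FPKM sums the calls were 26 higher and 24 lower. Over all 12348 tested genes 4255 were then called higher and 2382 lower, so the background had moved too. The lists then no longer held more lower than higher calls, while all tested genes held clearly more higher ones. In the calnexin cycle and N-glycosylation 0 of 12 were higher (0 by the unadjusted limma p under 0.05 too) and 7 lower (58.3%), led by the glucosidase gene Mogs (27.5 ± 0.931 against 12.6 ± 0.309 FPKM) and the oligosaccharyltransferase subunit Rpn2 (137 ± 5.78 against 87.1 ± 0.794 FPKM). In ER translocation 2 of 17 were higher and 6 lower (11.8% and 35.3%), led by the signal peptidase subunit Spcs3 (26.3 ± 3.79 against 17.2 ± 1.68 FPKM) and the translocon subunit Ssr4 (181 ± 15.5 against 122 ± 1.81 FPKM). Among other disulfide and chaperone genes 1 of 14 was higher and 6 lower (7.14% and 42.9%), with Tmx2 (29.6 ± 2.1 against 18.7 ± 0.723 FPKM) and the BiP exchange factor Sil1 (27.2 ± 1.32 against 18.6 ± 1.45 FPKM) in front. Spcs3, Ssr4, Tmx2 and Sil1 lost their calls without variance shared across genes (0.154, 0.0763, 0.0602 and 0.0832, the highest of their alternatives).

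Collagen maturation outside the members went both ways, with 6 of 17 higher and 4 lower (35.3% and 23.5%, against 26.6% and 26.3% of all tested genes). The lysyl oxidase gene Loxl2, whose product oxidises lysines for cross-linking, was at 43.0 ± 4.43 FPKM in laminin-negative cells against 7.75 ± 0.646 FPKM (5.54-fold, log2 difference −2.33, limma adjusted p = 1.15e-08). Tll1, a procollagen C-proteinase, was at 1.92 ± 0.205 against 0.0218 ± 0.00309 FPKM. It is 1 of the 4 lower genes and passed the filter only through the laminin-negative libraries, where it is high, so no p is given for it. Lox and Loxl1 were among the 6 higher, at 22.1 ± 1.15 against 55.3 ± 0.533 FPKM and 105 ± 6.31 against 174 ± 7.48 FPKM. The others were the N-proteinase genes Adamts2 and Adamts14 and the coat genes Sec24d and Sec31a. Among other ER prolyl isomerases and hydroxylases 1 of 9 was higher and 3 lower (11.1% and 33.3%, against 26.6% and 26.3% of all tested genes). The higher one was Fkbp9 (182 ± 7.25 against 300.02 ± 16.9 FPKM). Among the lower was Fkbp7 (89.3 ± 12.9 against 55.6 ± 0.596 FPKM), whose call was lost without variance shared across genes (0.111, the highest of its alternatives).

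In the list of ER-associated degradation 2 of 15 were higher and 4 lower (13.3% and 26.7%, against 26.6% and 26.3% of all tested genes). The higher ones were Derl3, which encodes a stress-induced derlin (0.866 ± 0.0974 against 3.25 ± 0.033 FPKM), and Edem1, which encodes a mannosidase-like factor (9.45 ± 0.0203 against 16.8 ± 0.714 FPKM, limma adjusted p = 2.86e-05). Derl3 passed the filter only through the laminin-positive libraries, where it is high, so no p is given for it. Of 14 tested stress-response regulators and targets of ATF4 or CHOP, 3 were higher and 5 lower (21.4% and 35.7%). The largest differences were those of Nupr1 (62.5 ± 0.107 against 6.31 ± 0.337 FPKM, 9.90-fold, limma adjusted p = 3.84e-10) and Atf5 (93.7 ± 4.76 against 35.6 ± 0.216 FPKM, limma adjusted p = 7.54e-08), both in the direction of Ddit3. The list did not move together. Sesn2 (log2 difference 0.6, limma adjusted p = 5.64e-04), Atf6b and Creb3l2 were the higher ones. Atf3, Asns and Ppp1r15a were not called, and Trib3 and Chac1 were below the filter. Among 10 collagen chains 3 were higher and 5 lower (30% and 50%), with the largest differences at Col3a1 (1871 ± 85.2 against 619 ± 8.06 FPKM) and Col4a1 (372 ± 21.2 against 976 ± 0.863 FPKM).

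**Figure D4:**
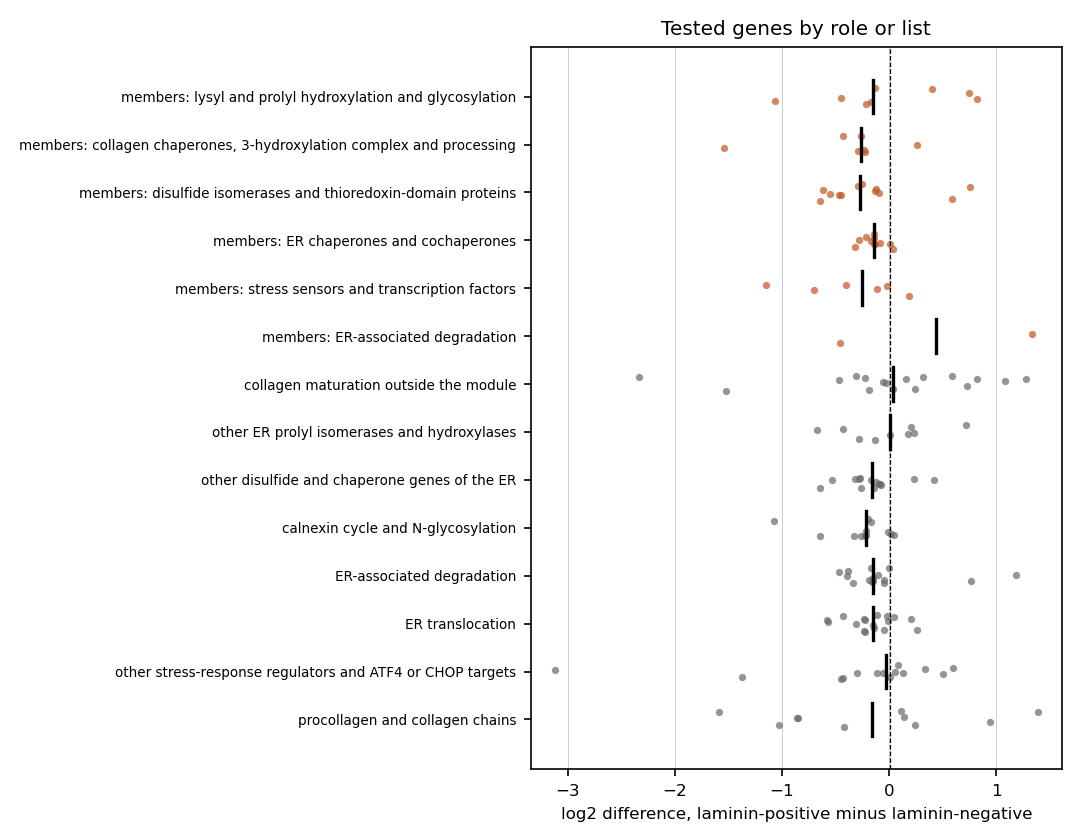
Log2 difference of each tested gene (points) for the 6 roles of the members and the 8 further lists, with a black bar at each median and a dashed line at the median of all tested genes (0.01). The ER chaperones among the members and the lists of the calnexin cycle, other disulfide genes, degradation and translocation have medians from −0.21 to −0.14, while collagen maturation and collagen chains are spread to both sides.

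Under another scaling of the libraries 10 of the smaller lower calls ended. With libraries set to equal FPKM sums without the ribosomal RNA gene Rn45s, the median of all genes moved by 0.11. The split of all calls then became 64.1% higher, against 50.3%, and that of the members 38.1% higher, against 23.3%. Under that scaling 13 of the 23 lower and 7 of the 7 higher members kept their calls. Atf6 became a higher call (limma adjusted p = 0.0182). Xbp1 and Atf4, which were not called, changed sign to 0.01 and 0.11. Leaving out 1 library ended lower calls near the threshold. Without laminin-negative replicate 1 these were Hsp90b1 and Ern1, and without laminin-negative replicate 2 Hsp90b1, Creld2, P3h1, Fkbp14 and Colgalt1. Without laminin-positive replicate 1 they were Hsp90b1, P3h1, Ppib, Fkbp10, Fkbp14, Txndc5, Txndc15, Colgalt1 and Ern1, beside the higher call of Serpinh1. Without laminin-positive replicate 2 they were Hspa5, Hsp90b1, Creld2, P3h1, Ppib, Txndc15 and Colgalt1, again beside Serpinh1. Limma adjusted p for these ranged from 0.0535 to 0.340. Of the 30 member calls, 11 held under each alternative in which the gene was tested, and 1 of these, Colgalt2, is no support for the reason given above. The other higher calls among them were Herpud1, Plod1, Ero1l and P4ha2, and lower were Pcolce, Ddit3, Plod2, Eif2ak3, Pdia6 and Crtap.

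**Figure D5:**
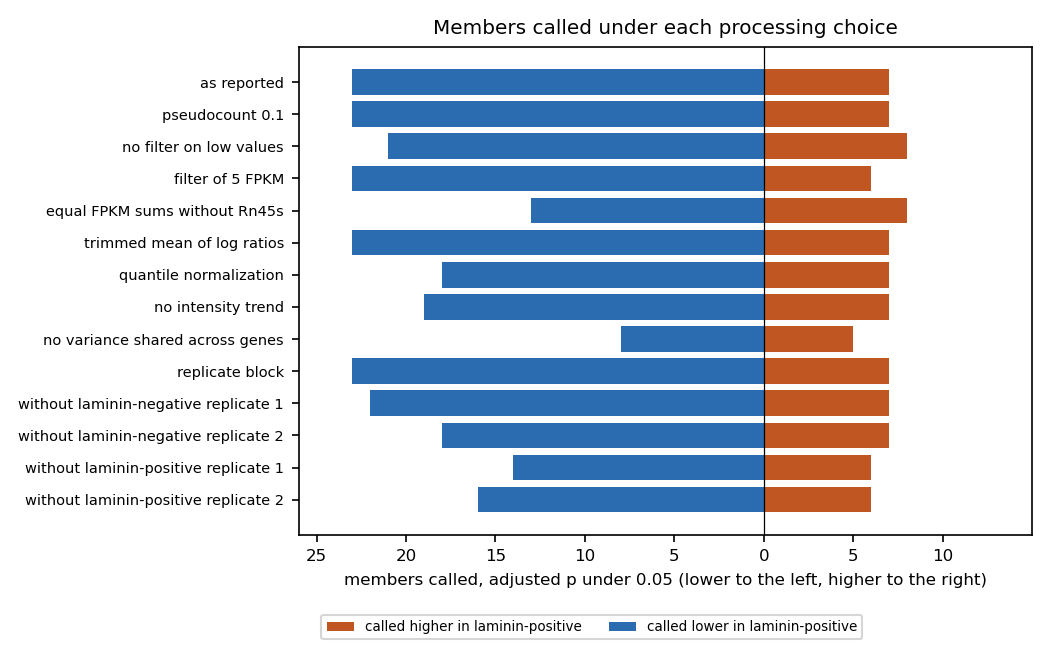
Number of members called lower (bars to the left) and higher (bars to the right) in laminin-positive cells by limma at an adjusted p under 0.05, as reported and under 13 alternatives. Higher calls range from 5 to 8, and lower calls from 8 without variance shared across genes to 23.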

How the data were processed

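The deposited file gives 1 FPKM value per gene locus and library, computed by the authors, per the file headers. TopHat2 2.1.1 and Cufflinks 2.2.1 are named in the submitters' processing notes, with no role. Build, annotation, strand setting and library scaling: not given in the sources used here. The loci of 21203 symbols were compared with GENCODE M21 genes on GRCm38, and 99.6% overlapped, as did those of the 49 members, so GRCm38 coordinates from that annotation are printed. Depth is unknown. Identical replicate values above 0 occurred in 0 rows of the laminin-negative and 1 row of the laminin-positive pair.

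Genes of at least 1 FPKM in at least 2 libraries (12348) were compared on log2(FPKM + 1), which understates differences of low genes, using limma 3.58.1 in R 4.3.3 (two-sided, intensity trend, no replicate block). Benjamini-Hochberg adjustment ran over all tested genes, with a threshold of 0.05. Residual degrees of freedom were 2 and prior ones 8.21 at the median. Folds are ratios of mean FPKM, and pairs of averages name laminin-negative first. The script was tested on simulated data. Members and lists were chosen with earlier results of these data known. Full values were given for called members with a log2 difference of at least 1 and for the defining genes of each role, and each further list is represented by its 2 largest differences; other genes named with values were chosen after these were seen. Alternatives covered pseudocount, filter, scaling, variance model, replicate block and leaving out each library. Promoter windows were those of RefSeq on GRCm38.p6.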

Additional observations from a re-analysis of the deposited data

How the results depend on the processing

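Across 13 alternatives the count of all called genes (6533) was within 1.5 times of that reported except without variance shared across genes (2557). The members called lower (23) became 13 with equal FPKM sums without Rn45s and 8 without variance shared across genes, while the members called higher (7) stayed between 5 and 8. The lower calls over all tested genes went from 3245 to 2382 and 1211 in the same settings. Genes called in the further lists (58) became 26 without variance shared across genes. Leaving out each library in turn gave 14 to 22 lower and 6 to 7 higher members, 5197 to 6318 called genes overall and 45 to 57 in the further lists, and the lowest count of lower members, 14, came without laminin-positive replicate 1. Among the genes given with full values or leading a further list, only genes that were not called changed sign. These were Xbp1 (0.01) and Atf4 (0.11) with equal FPKM sums, and Atf4 under quantile normalization (0.01), without laminin-negative replicate 2 (0.02) and without laminin-positive replicate 2 (0.09), in a range from −0.12 to 0.09 with each library left out. The cause was not tested. With the replicate number as a block, 6719 genes were called, with 7 members higher and 23 lower, and no member call changed. Deviations of same-numbered libraries correlated at 0.01, and the labels do not say that the numbers pair samples. Values are FPKM without counts, so what depth limits could not be measured. With 2 libraries a group, 17 of the 30 member calls were lost without variance shared across genes, among them P4hb, Serpinh1 and Hspa5.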
